A study of Homo sapiens with 40 samples.

Results

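The regions described here were the H3K27ac peaks at the start sites of long non-coding RNA (lncRNA) genes in a human pancreatic beta-cell line, and how they differed between senescent and non-senescent cells. A peak was a member when it was under 10000 bp wide, lay within 2000 bp of the start of any transcript of a GENCODE 44 lncRNA gene, lay farther than 2000 bp from every protein-coding transcript start, and overlapped neither of the 2 deposited enhancer lists. Of 51489 H3K27ac peaks, 6144 lay near a lncRNA start, 5921 of those were narrow enough, 2773 of those had no protein-coding start nearby, and 1681 remained once listed enhancers were removed. The 1681 members were assigned by the nearest start to 1503 of the 18866 annotated lncRNA genes. Another lncRNA gene also started within reach of 245 of them.

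The cells were EndoC-βH3, a single human beta-cell line in which the immortalizing transgenes (hTERT and SV40 large T antigen) can be excised by a tamoxifen-inducible Cre recombinase. Its genotype was labeled WT in both groups. The senescent group was treated with 4-hydroxytamoxifen (4-OHT) for 3 weeks and the non-senescent group was the control without it, so excision and senescence cannot be told apart in these libraries. H3K27ac and CTCF ChIP-seq each comprised 3 senescent and 3 non-senescent libraries with their inputs, and the deposited tables gave 1 comparison per peak and no value per library. The labels did not say that replicates were separate cultures, so that the p-values measured only the spread between these libraries.

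LncRNA genes are transcribed by RNA polymerase II from promoters of their own, often from the opposite strand of a coding gene or in the open chromatin beside an enhancer, and some serve as the precursors of miRNAs or small nucleolar RNAs. Acetylation of histone H3 at lysine 27 marks active promoters and enhancers. ChIP-seq signal carries no strand, so a peak over several starts cannot be assigned to 1 transcript, and transcription itself was not measured here.

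The beta-cell label was checked on marker genes. All 13 beta-cell markers examined had an H3K27ac peak within 2000 bp of a start, and the peak of PAX6 was the strongest with a mean normalized read count of 16247, while MAFA was the weakest with 43.6. Among the markers of other pancreatic, stromal, blood or vessel cells given here, IRX2, SST, CPA1 and KRT19 had a peak, with mean counts of 3342, 54.2, 1498 and 913. GCG, PPY, PRSS1, COL1A1, PTPRC and PECAM1 had none. The IRX2 count was above that of INS (3078) and below that of PAX6, so that signal at other markers was not always low.

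Start-site sequences are given for the 2 gained and the 2 lost members with the smallest adjusted p-values among those whose start lay inside the peak, and for the MIR34AHG start, which was chosen after its value was seen. Each window ran from 250 bases before to 50 bases after the start, on the strand of the lncRNA, in hg38. Capitals mark matches to 6 motifs, searched on both strands. The AP-1 motif was TGANTCA and the cAMP response element was TGACGTCA. The NF-Y motif was CCAAT, and the TATA box was searched as TATAAA. The GC box was GGGCGG and the cell cycle homology region was searched as TTTGAA. LINC01142 lay at chr1:170284228-170284527 (minus strand, gained), LARS2-AS1 at chr3:45509496-45509795 (minus strand, gained), ENSG00000260498 at chr16:87779325-87779624 (minus strand, lost), ENSG00000249476 at chr5:109326320-109326619 (minus strand, lost) and MIR34AHG at chr1:9182343-9182642 (minus strand, gained).
LINC01142: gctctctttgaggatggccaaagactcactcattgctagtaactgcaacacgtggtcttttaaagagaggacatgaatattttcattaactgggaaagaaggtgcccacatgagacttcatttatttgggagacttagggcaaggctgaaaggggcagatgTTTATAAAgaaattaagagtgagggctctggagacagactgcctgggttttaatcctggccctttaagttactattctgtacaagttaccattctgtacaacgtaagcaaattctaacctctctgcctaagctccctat
LARS2-AS1: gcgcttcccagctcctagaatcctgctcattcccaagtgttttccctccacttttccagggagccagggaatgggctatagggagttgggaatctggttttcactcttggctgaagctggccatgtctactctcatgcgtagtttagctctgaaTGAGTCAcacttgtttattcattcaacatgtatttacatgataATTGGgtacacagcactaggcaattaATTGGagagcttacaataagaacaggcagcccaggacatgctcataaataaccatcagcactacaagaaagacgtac
ENSG00000260498: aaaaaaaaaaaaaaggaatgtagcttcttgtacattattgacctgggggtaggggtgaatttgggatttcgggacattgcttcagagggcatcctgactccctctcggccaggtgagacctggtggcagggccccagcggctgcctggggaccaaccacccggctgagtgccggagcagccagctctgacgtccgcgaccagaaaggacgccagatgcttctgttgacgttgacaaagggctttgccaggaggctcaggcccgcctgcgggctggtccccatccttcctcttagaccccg
ENSG00000249476: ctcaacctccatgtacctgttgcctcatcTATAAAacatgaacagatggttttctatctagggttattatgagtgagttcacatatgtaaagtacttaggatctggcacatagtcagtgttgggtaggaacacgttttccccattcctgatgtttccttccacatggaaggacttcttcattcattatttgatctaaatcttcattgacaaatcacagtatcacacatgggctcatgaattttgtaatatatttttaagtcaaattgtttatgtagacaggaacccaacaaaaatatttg
MIR34AHG: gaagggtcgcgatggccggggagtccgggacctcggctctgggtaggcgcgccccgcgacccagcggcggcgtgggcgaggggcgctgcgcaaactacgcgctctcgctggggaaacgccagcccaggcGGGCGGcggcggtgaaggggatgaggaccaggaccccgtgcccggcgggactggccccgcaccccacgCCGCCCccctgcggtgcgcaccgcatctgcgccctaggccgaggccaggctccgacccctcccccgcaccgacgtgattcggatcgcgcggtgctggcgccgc
The window of LINC01142 was AT-rich (42.3% G+C) with overlapping TATA boxes on the 2 strands, that of LARS2-AS1 held 1 AP-1 match and 2 NF-Y matches, and that of ENSG00000260498 held none of the 6 motifs. The MIR34AHG window was 77.3% G+C with 2 GC boxes.

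H3K27ac was higher in senescent cells at 125 members and lower at 238. A call required an adjusted p under 0.05 in the authors' deposited DESeq2 table and more than a 1.5-fold change. The other 1318 were not called. Members were gained in 7.44% and lost in 14.2% of cases, against 9.47% gained and 13.1% lost over all H3K27ac peaks, so that both shares lay near the background of the table. The median log2 fold change of the members was -0.04 (quartiles -0.46 and 0.29) against 0.01 over all peaks, and 904 members were below 0 and 777 above. Of the called members, 65.6% were losses, compared with 58.1% of all called peaks. The median change of the gained members was 1.99-fold (at most 24.9) and that of the lost members 2.03-fold (at most 5.76). Only 4 gained and 5 lost members exceeded 4-fold.

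**Figure D1:**
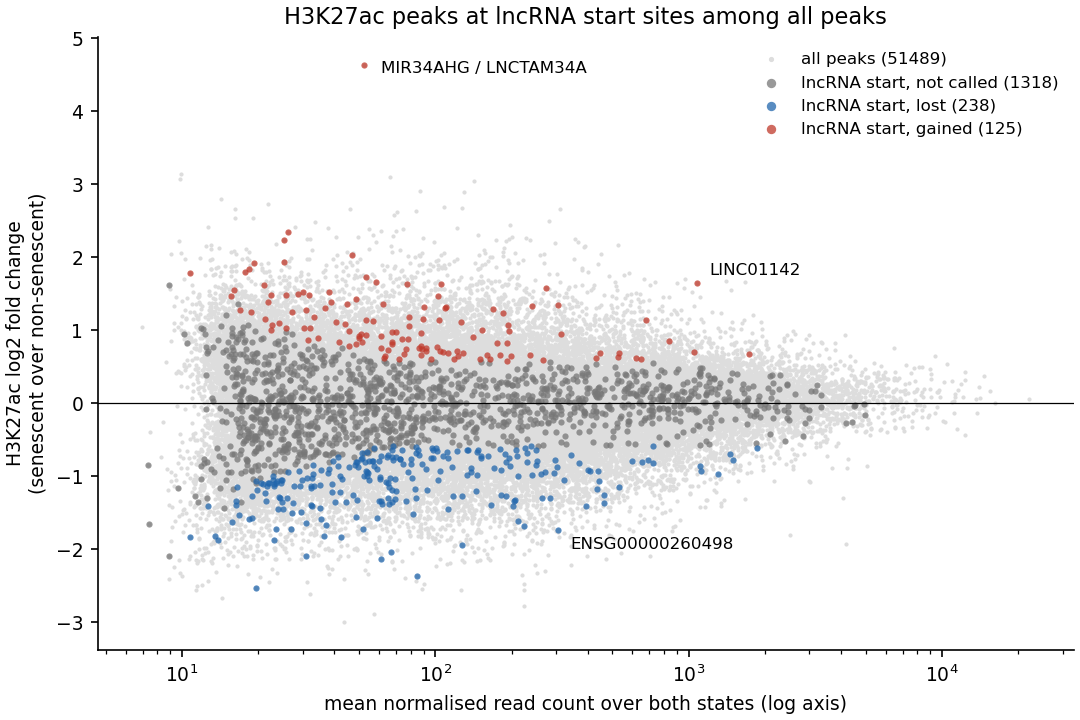
Each point is an H3K27ac peak, with its mean normalized read count over both states on a log axis and its log2 fold change (senescent over non-senescent). Grey points are all 51489 peaks, and the members are colored by call (125 gained, 238 lost, 1318 not called). The MIR34AHG / LNCTAM34A peak stands at 4.64, above every other peak, and the spread of the members narrows as the mean count rises.

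As a description with no test, members were called more often than protein-coding promoter peaks outside the enhancer lists, of which 3.74% were gained and 9.81% lost (12437 peaks, median log2 fold change 0.03). LncRNA start peaks inside a listed enhancer were gained in 12.3% and lost in 17.2% (1092 peaks), but those lists come from the same H3K27ac libraries. Peaks with no start outside genes and outside the lists were gained in 10.2% and lost in 15.7%, and those inside protein-coding genes in 8.93% and 7.22%. The classes also differed in depth: the median mean count was 69.7 for members, 427 for protein-coding promoter peaks, 344 for lncRNA starts in listed enhancers and 35.4 for startless peaks outside genes. The median standard error of a member's log2 fold change was 0.25, against 0.11 for a protein-coding promoter peak, and the part of this difference in the shares called was not tested.

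**Figure D2:**
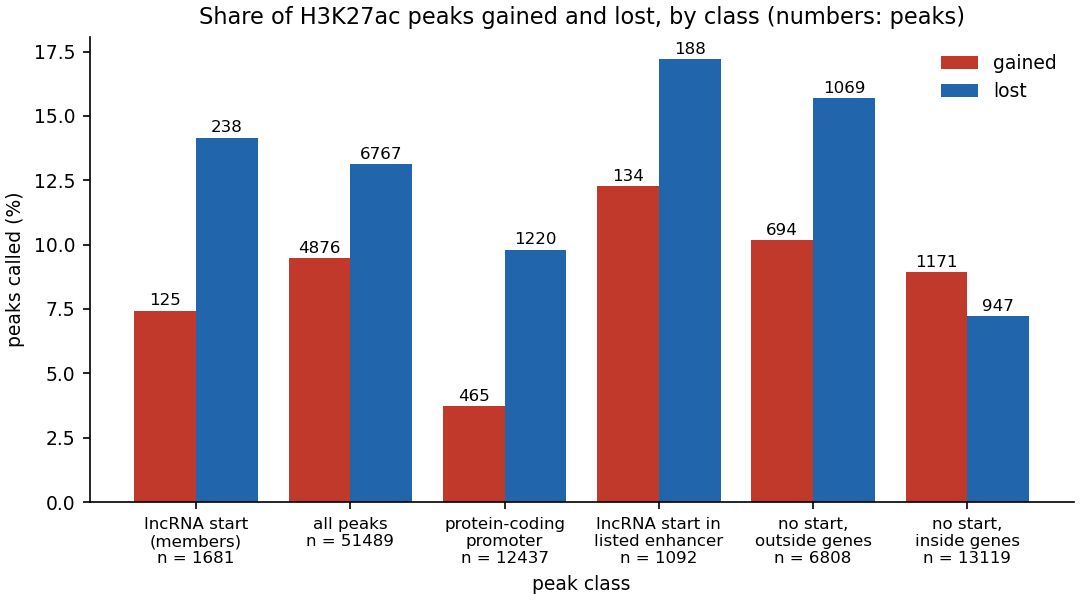
Bars give the percentage of H3K27ac peaks gained (red) and lost (blue) in each class, starting at 0, with the number of peaks above each bar. LncRNA start peaks were gained in 7.44% and lost in 14.2%, near the shares over all peaks (9.47% and 13.1%) and above those of protein-coding promoters (3.74% and 9.81%).

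The start of MIR34AHG, the host gene of the miRNA miR-34a, a known target of p53, carried the largest increase of any peak. The peak at chr1:9181351-9182921 rose by a log2 fold change of 4.64 ± 0.49 (SE), or 24.9-fold, with an adjusted p of 6.55e-20 in the deposited DESeq2 table. The next largest increase among the 51489 peaks was 3.14. With a mean normalized read count of 52.4 over 3 and 3 libraries, the fold change implied about 4.04 normalized reads in a non-senescent library, so that the fold was taken over a low level. The peak spans the canonical starts of MIR34AHG on the minus strand (9182392) and of LNCTAM34A, its antisense neighbor on the plus strand (9182004), 388 bp apart. It was assigned to LNCTAM34A (ENSG00000234546), by another start at 9182164, and cannot be given to 1 of the pair. The miR-34a hairpin lies 30615 bp downstream of the MIR34AHG start. The nearest coding promoters were not called: H6PD (0.03 ± 0.14, adjusted p 0.898 in the deposited DESeq2 table), a glucose-6-phosphate dehydrogenase of the endoplasmic reticulum, and GPR157 (0.01 ± 0.32, adjusted p 0.992), an orphan receptor, stayed near 0.

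The mature miR-34a sequences (RefSeq, GRCh38.p14) are shown because their host start changed most, beside those of let-7 miRNAs of MIRLET7BHG, another gained host. Capitals mark the seed (bases 2 to 8).
hsa-miR-34a-5p: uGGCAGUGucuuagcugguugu
hsa-miR-34a-3p: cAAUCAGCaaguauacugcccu
hsa-let-7a-5p: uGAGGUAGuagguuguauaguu
hsa-let-7b-5p: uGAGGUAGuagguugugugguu
The let-7a and let-7b 5p arms share a seed that differs from that of miR-34a-5p. The mature miRNAs themselves were not measured.

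A p53 response element, searched as 2 intact half-sites at most 13 bases apart on either strand, was found in the MIR34AHG peak. This search was added after the values were seen. The element occupied chr1:9182144-9182163 (hg38, shown on the minus strand with 20 flanking bases on each side and the element in capitals), within the first exon of the canonical MIR34AHG and LNCTAM34A transcripts and centered 238 bp downstream of the MIR34AHG start.
p53 element: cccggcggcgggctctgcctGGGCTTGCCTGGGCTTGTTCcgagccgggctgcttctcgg
Among members the search was positive in 7 of 1681 peaks (0.416%), against 177 of all 51489 peaks (0.344%). The 7 comprised 3 gained, 1 lost and 3 uncalled members. Besides MIR34AHG, the gained ones were ENSG00000289208 inside GPHN (2.35 ± 0.44, adjusted p 1.05e-06 in the deposited DESeq2 table) and ENSG00000260196 inside KCNJ11 (1.84 ± 0.49, adjusted p 0.000904), and the lost one was DTNB-AS1 (-1.30 ± 0.23, adjusted p 2.86e-07). The remaining 3, LINC02910 (0.50), ENSG00000229996 (0.03) and NCAM1-AS1 (0.01), did not pass the fold threshold. In the 170 other H3K27ac peaks with such an element, 31 were gained (18.2%) and 19 lost (11.2%). Over all H3K27ac peaks 9.47% were gained and 13.1% lost, and the difference was not tested. A match in the sequence is a description and not a bound site.

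Among the other members with the strongest increases, LINC01142 on chromosome 1 (ENSG00000224286, chr1:170283500-170286664, outside any coding gene) led by adjusted p. Its H3K27ac rose 3.13-fold (log2 1.65 ± 0.09, adjusted p 2.14e-73 in the deposited DESeq2 table), from an implied 521 to 1629 normalized reads per library. The nearest protein-coding start, that of NTMT2, was 137541 bp away. LINC01782 on chromosome 19 rose by 1.34 ± 0.14, LINC01902 on chromosome 18 by 0.68 ± 0.08 and MIR325HG on the X chromosome by 1.64 ± 0.21 (adjusted p 4.63e-20, 2.15e-17 and 2.80e-13).

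Several of the 12 strongest gains were at antisense transcripts. LARS2-AS1, inside the gene of the mitochondrial leucyl-tRNA synthetase, rose by 1.14 ± 0.10, RUVBL1-AS1, inside the gene of a chromatin-remodeling ATPase, by 1.58 ± 0.14, and MECOM-AS1, inside the gene of a zinc-finger transcription factor, by 1.34 ± 0.13. TRPM2-AS, opposite to a calcium-permeable channel known in beta cells, rose by 0.86 ± 0.09 and CNTN4-AS1, named for a neural adhesion gene, by 1.24 ± 0.16 (adjusted p between 1.75e-13 and 2.40e-29 in the deposited DESeq2 table). ENSG00000269091 (0.70 ± 0.08) inside ZNF473 and ENSG00000230532 (1.29 ± 0.16) inside SNF8 also start on the strand opposite to their coding host. The RUVBL1-AS1 start lay 1080 bp beside the gained peak, which overlaps an exon of SEC61A1. A further RUVBL1-AS1 member, beginning at chr3:128075144 (mean count 160), was not called (0.11 ± 0.17). The promoter peaks of LARS2 (0.17 ± 0.13), RUVBL1 (0.10 ± 0.10) and MECOM (0.48 ± 0.07) were not called.

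**Figure D3:**
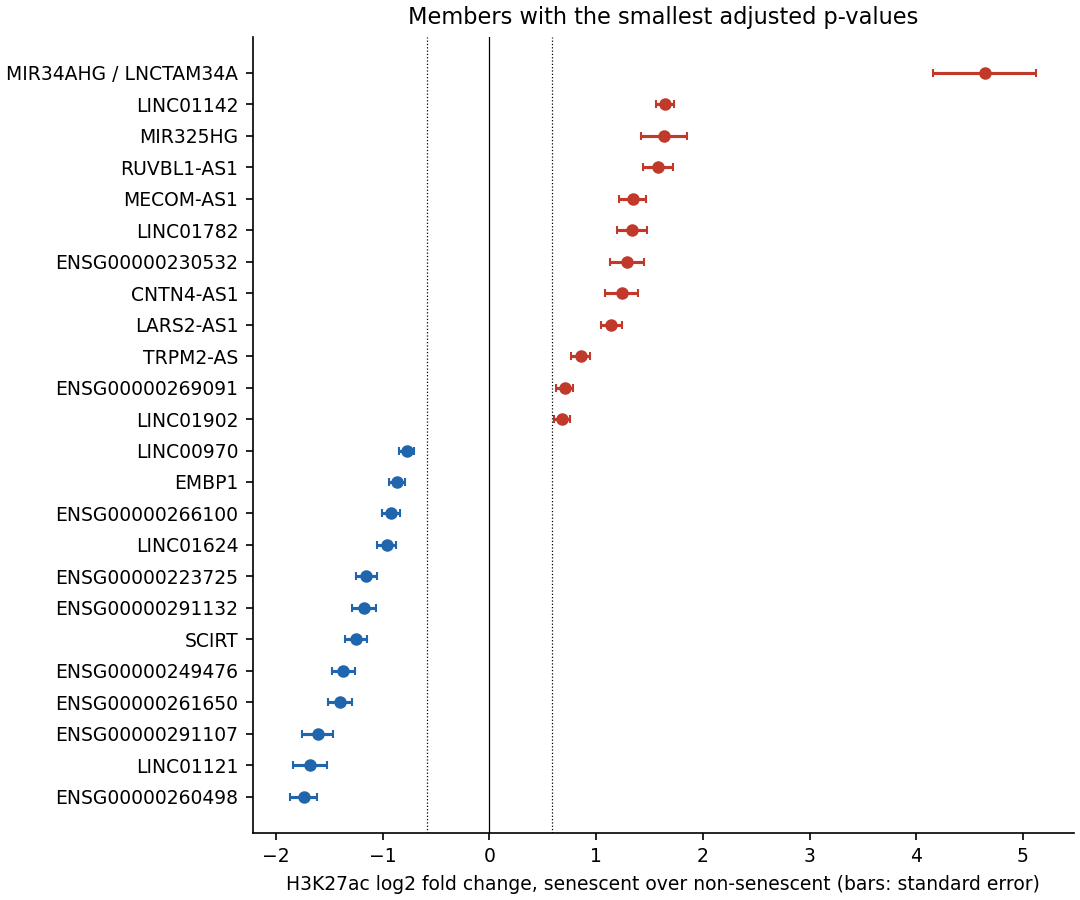
Points are the log2 fold changes (senescent over non-senescent) of the 12 gained (red) and the 12 lost (blue) members with the smallest adjusted p-values, with the standard error as bars. Dotted lines mark the 1.5-fold threshold. All but MIR34AHG / LNCTAM34A lie between -1.74 and 1.65.

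The strongest losses were mostly at unnamed or little studied lncRNAs. ENSG00000260498 on chromosome 16 (chr16:87778000-87781501) fell 3.34-fold (log2 -1.74 ± 0.13, adjusted p 4.70e-41 in the deposited DESeq2 table), from an implied 468 to 140 normalized reads per library. ENSG00000249476 on chromosome 5 (chr5:109324311-109329489) changed by -1.37 ± 0.11 and ENSG00000261650 on chromosome 12 by -1.40 ± 0.11 (adjusted p 8.86e-35 and 3.70e-32). SCIRT on chromosome 6, a lncRNA described in tumor stem cells, changed by -1.25 ± 0.10, from an implied 656 to 275 reads. EMBP1, a transcribed pseudogene of embigin, changed by -0.86 ± 0.08, LINC01624 by -0.96 ± 0.09 and LINC00970, which lies 16095 bp from the start of the sodium pump subunit gene ATP1B1, by -0.78 ± 0.07. The remaining 5 were ENSG00000223725 near KLF7 (-1.15), ENSG00000291107 (-1.61), ENSG00000266100 inside MSI2 (-0.92), ENSG00000291132 inside EIF3I (-1.18) and LINC01121 (-1.68 ± 0.16). The starts of ENSG00000266100, LINC01121 and LINC01624 lay 917, 553 and 476 bp beside their peaks. The first of these peaks overlaps an exon of MSI2, and that of LINC01624 overlaps an exon of another lncRNA, ENSG00000271820. The coding start nearest to LINC01121, 246042 bp away, was SIX2, a homeobox factor of human beta cells, whose own promoter peak also fell (-2.01 ± 0.26, adjusted p 3.54e-13 in the deposited DESeq2 table).

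The other members that changed over 4-fold, named after their values were seen, had low counts. DSCR4-IT1 inside KCNJ6 (2.03 ± 0.33) and ENSG00000286929 (2.23 ± 0.46) were gained, with mean counts of 47.0 and 25.2, besides ENSG00000289208. THORLNC, a lncRNA known from testis and tumors (-2.13 ± 0.30), ENSG00000267568 (-2.36 ± 0.27), ENSG00000289350 (-2.03 ± 0.27) and ASNSP1 (-2.09 ± 0.39) were lost, with mean counts of 61.2, 85.1, 66.9 and 30.9. The starts of DSCR4-IT1, ENSG00000286929 and ENSG00000289350 lay 1752, 1532 and 1036 bp beside their peaks.

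The DRAIC gene, a lncRNA known as a tumor suppressor in prostate, had 3 members on chromosome 15 and all 3 were lost. The strongest peak, over a start, changed by -1.07 ± 0.10 (mean count 442, adjusted p 1.41e-23 in the deposited DESeq2 table), and the 2 small ones by -2.53 ± 0.52 and -1.14 ± 0.49 (mean counts 19.6 and 16.5, adjusted p 8.81e-06 and 0.0482). DRAIC was singled out after its values were seen. In all, 151 lncRNA genes had more than 1 member. In 37 of them every member was above 0, and in 54 every member was below 0. Over all members 777 were above 0 and 904 below, and agreement within genes was not tested. In 1 gene a gained and a lost member occurred together. At least 2 lost members occurred in 3 genes (DRAIC, ST8SIA5-DT and ENSG00000237356) and at least 2 gained ones in 2 genes. Over all H3K27ac peaks 9.47% were gained and 13.1% lost.

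The members with the most signal were not called. OLMALINC (mean count 4956, log2 fold change -0.15 ± 0.06), LINC01145 (4933, -0.00 ± 0.06), DLEU2 (4548, -0.03 ± 0.06), LINC01138 (4482, -0.04 ± 0.07) and HSD17B7P2 (4396, -0.25 ± 0.07) were all below the fold threshold. LINC01145 and LINC01138 each have 5 near-identical copies elsewhere in the genome (at least 95% identity over at least 50% of the peak) and HSD17B7P2 has 1, so that their reads may belong to a copy. Such copies were found for 169 members, of which 5 were gained and 14 lost, and the 1512 members without one were gained in 7.94% and lost in 14.8% of cases.

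LncRNAs known for p53, senescence and proliferation are given beside the 22.6% of all H3K27ac peaks that were gained or lost. Of 16 such genes, 9 had a member, and of their 10 members 1 was gained (MIR34AHG), 1 was lost (PVT1, the neighbor of MYC) and 8 were not called, with a median log2 fold change of -0.02. The PVT1 peak was small (mean count 10.8, -1.84 ± 0.66, adjusted p 0.0173 in the deposited DESeq2 table). NORAD, a lncRNA that binds Pumilio proteins (0.23 ± 0.07), MIR31HG (0.10 ± 0.12), MIR17HG, the host of a proliferative miRNA cluster (-0.01 ± 0.07), LINC-PINT (-0.01 ± 0.22 and -0.14 ± 0.28), GAS5 (-0.07 ± 0.43, in a peak assigned to GAS5-AS1), DLEU2 (-0.03 ± 0.06) and NEAT1, the scaffold of paraspeckles (-0.28 ± 0.07, mean count 4191), stayed within 1.5-fold. PURPL had no peak in reach. PANDAR and DINOL were outside the members because they start beside CDKN1A, the p21 gene, whose promoter peak rose by 2.50 ± 0.16 (adjusted p 5.09e-54).

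Imprinted and islet lncRNAs were represented by few genes. MEG3, an imprinted lncRNA of the DLK1 locus that is expressed in human beta cells, had 4 members, all above 0. The largest of them by signal changed by 0.44 ± 0.10 (mean count 655, adjusted p 9.12e-05 in the deposited DESeq2 table), below the fold threshold, and the 3 small ones by 0.97 ± 0.53, 1.39 ± 0.47 and 0.66 ± 0.40 (mean counts 17.0, 21.8 and 29.9), of which the second was called (adjusted p 0.0102). The imprinted KCNQ1OT1 (0.34 ± 0.11), H19 (0.28 ± 0.12 and 0.05 ± 0.46) and MEG9 (0.15 ± 0.09) and the lncRNA OIP5-AS1 (0.39 ± 0.37) were not called. The 5 members of HNF4A-AS1, opposite to the gene of the transcription factor HNF4A, ranged from -0.56 to 0.09 and none was called. Over the 10 nuclear and imprinted members 1 was gained and none lost (9 above 0, median 0.37), and over the 12 islet and endoderm members 1 was gained and none lost (8 above 0, median 0.18), with MEG3, KCNQ1OT1 and H19 counted in both. The only islet members outside these genes were those of HNF4A-AS1, so that the islet members above 0 came mostly from imprinted genes. Over all H3K27ac peaks 9.47% were gained and 13.1% lost. Other starts of genes on these lists lie in listed enhancers and are no members. Of these, MIAT (1.74 ± 0.11), SOX2-OT (0.96 ± 0.25) and MIR7-3HG (0.68 ± 0.08) rose and MEG8 fell (-0.83 ± 0.12). LINC00261 (0.46 ± 0.09), MEG3 (0.03 ± 0.06) and another MEG8 peak, near a coding start (0.20 ± 0.20), were not called there.

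**Figure D4:**
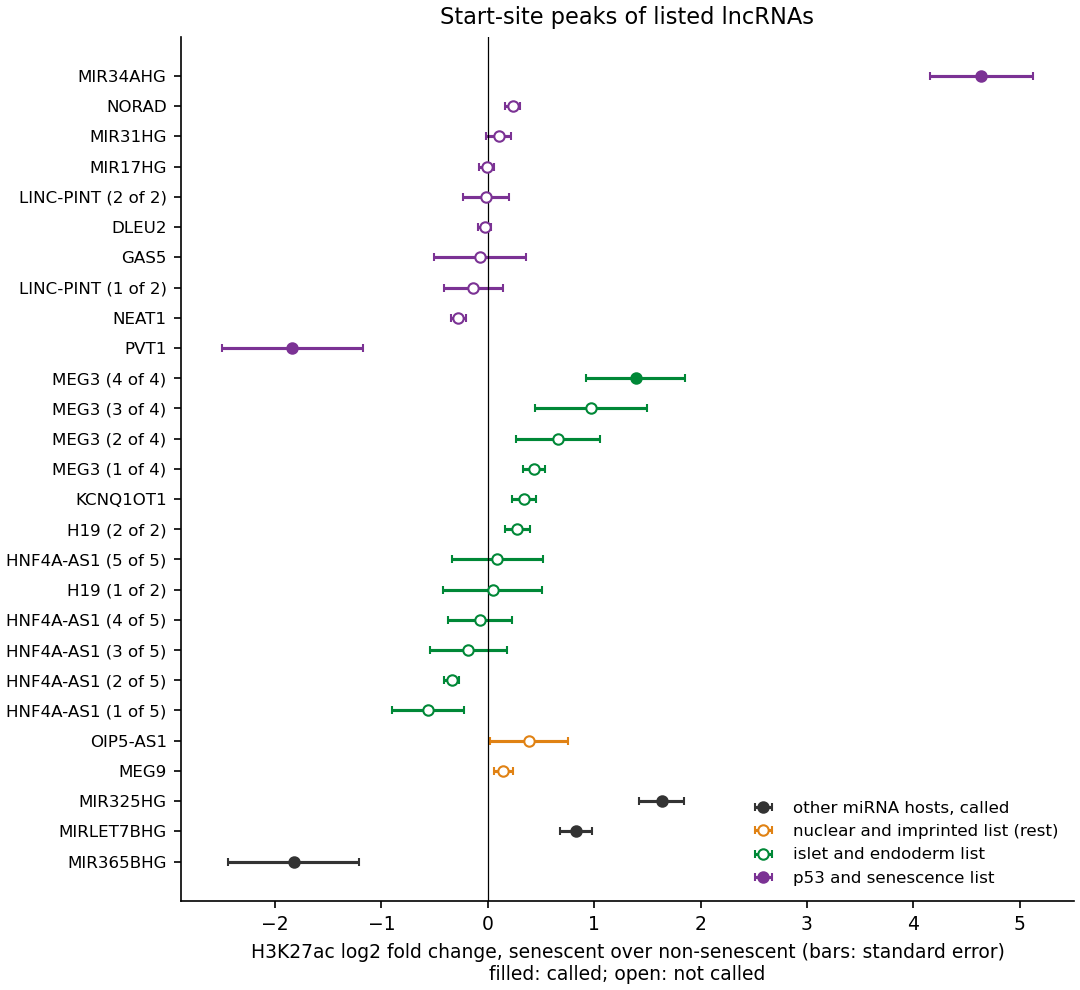
Points are the log2 fold changes (senescent over non-senescent) of start-site peaks of the listed lncRNAs, with the standard error as bars. Filled points were called and open ones were not, and a gene with several members is numbered. MIR34AHG stands at 4.64, and the 4 MEG3 members lie between 0.44 and 1.39.

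Hosts of small RNAs were examined next, against 9.47% gained and 13.1% lost over all H3K27ac peaks. The 84 annotated miRNA host genes had 31 members, of which 3 were gained, 1 was lost and 19 were above 0 (median 0.10). The gained ones were MIR34AHG, MIR325HG and MIRLET7BHG (0.83 ± 0.15, adjusted p 2.77e-07 in the deposited DESeq2 table, with a further member at 0.42 ± 0.21 not called), and the lost one was MIR365BHG at a mean count of 13.5 (-1.82 ± 0.61, adjusted p 0.0102). MIR1915HG (0.48 ± 0.07), MIR99AHG (0.31 ± 0.11), MIR210HG (0.02 ± 0.13) and MIR23AHG (-0.24 ± 0.26) were not called. Of the 30 snoRNA host genes 17 had a member, and none of their 19 members was called in either direction. These members ranged from -0.55 to 0.60 with a median of 0.10. Peaks of SNHG1 (-0.98 ± 0.10), SNHG18 (-0.74 ± 0.15) and SNHG31 (-0.87 ± 0.09) that lie near a coding start are no members, and these were lost. The SNHG1 member was small (mean count 19.1). Other peaks of snoRNA hosts that are no members were not called.

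Antisense and divergent lncRNAs are given as a description with no test, beside 9.47% gained and 13.1% lost over all H3K27ac peaks. Of 228 members assigned to a gene with an -AS name, 23 were gained (10.1%) and 40 lost (17.5%), and of 15 with a -DT name, which marks a divergent transcript, 4 were gained and 4 lost. Named after their values were seen, the gained divergent ones were EIF5-DT (1.36 ± 0.28), ZBTB24-DT (1.10 ± 0.42), WDR11-DT (1.04 ± 0.37) and NUDT16-DT (0.83 ± 0.16), and the lost ones were both peaks of ST8SIA5-DT (-1.19 ± 0.22 and -1.13 ± 0.45), FGGY-DT (-0.71 ± 0.22) and B3GAT1-DT (-0.65 ± 0.19). CDKN2A-DT, beside the gene of p16, was not called (-0.33 ± 0.35). By the member rule all these peaks lie over 2000 bp from the start of every protein-coding transcript. The rule does not cover other transcripts of coding genes, and a lncRNA start beside its peak may lie nearer to a coding start. The starts of EIF5-DT, ZBTB24-DT, WDR11-DT and B3GAT1-DT lay between 1299 and 1975 bp beside their peaks. Mean counts were low at ZBTB24-DT (24.2) and WDR11-DT (32.1). Of 343 LINC members 18 were gained and 51 lost, and of 851 known only by an Ensembl ID 70 were gained and 118 lost.

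For 170 antisense members the gene they are named for had a promoter peak of its own, and the 2 peaks were compared as a description, since they share libraries. Beside 19 gained antisense members, 4 sense promoters were gained and none lost. Beside 28 lost ones, 9 sense promoters were lost and none gained. Beside 123 uncalled ones, 4 were gained and 10 lost. Pairs were counted, so a promoter with several antisense members, such as that of HNF4A or LIPE, entered more than once. Over all unlisted protein-coding promoter peaks 3.74% were gained and 9.81% lost. The pairs lost together included INHBA-AS1 with INHBA, which encodes an activin subunit (-0.87 ± 0.12 and -1.10 ± 0.17), SLC7A11-AS1 with SLC7A11, the cystine transporter (-0.64 ± 0.24 and -1.35 ± 0.12), and MYCL-AS1 with MYCL, a MYC family factor (-1.59 ± 0.44 and -1.24 ± 0.30). The pairs gained together were ZNF790-AS1 (0.62 and 0.62), FAM53B-AS1 (1.67 and 0.63), LINGO1-AS1 (0.74 and 0.73) and LIMS1-AS1 (0.61 and 0.68), each with its namesake. These pairs were chosen after their values were seen. Most called antisense members, 15 of the 19 gained and 19 of the 28 lost, had an uncalled sense promoter.

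The place of the start went with the direction of change, as a description with no test. Over all H3K27ac peaks 9.47% were gained and 13.1% lost, and losses made up 58.1% of calls. Of 1151 members outside protein-coding genes 73 were gained (6.34%) and 176 lost (15.3%), so that losses made up 70.7% of their calls. Of 390 inside a coding gene on the opposite strand 35 were gained (8.97%) and 52 lost (13.3%), with 59.8% losses. Of 140 on the same strand 17 were gained (12.1%) and 10 lost (7.14%), with 37.0% losses among only 27 calls. Median G+C content also differed between these places (50.0%, 46.7% and 45.1%), and its part was not tested. Unlisted peaks without any annotated start showed a like split, with losses in 60.6% of calls outside coding genes and in 44.7% inside. Members whose start lay in the peak (920) were gained in 6.63% and lost in 14.7% of cases, against 8.41% and 13.5% when the start lay beside the peak (761), where the peaks were smaller (median mean count 34.3 against 184).

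Members whose nearest coding start is that of a beta-cell gene were chosen after their values were seen. ENSG00000260196, antisense within KCNJ11, which encodes the pore of the KATP channel, had its gained peak (1.84, above) at a mean count of 18.3, while the KCNJ11 promoter peak was not called (0.24 ± 0.08). PAUPAR beside PAX6 (-0.26 ± 0.19), ENSG00000228061 also near PAX6 (-0.11 ± 0.44), LINC02994 toward NKX6-1 (-0.17 ± 0.23) and LINC02118 toward ISL1 (0.40 ± 0.09, mean count 1548) were not called. Their peaks lay 8194, 34032, 213827 and 623506 bp from these coding starts, so that the last 2 are distant. Across the genome, the nearest coding gene had a promoter peak within 100000 bp for 78 gained members, and that promoter was gained for 6 and lost for 3 of them. It was gained for 5 and lost for 26 of 134 lost members, and gained for 29 and lost for 56 of 749 uncalled members. Over all unlisted protein-coding promoter peaks 3.74% were gained and 9.81% lost. Members were counted here, and they had 76, 129 and 644 different promoters, so that some promoters entered more than once. Both peaks come from the same libraries, and the relation was not tested.

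Base composition went with the direction of change as well. Members in the lowest quartile of G+C content (up to 42.8%) were gained in 10.8% and lost in 10.4% of cases, and those in the highest quartile (above 55.6%) in 4.76% and 21.2%. The same ranges over all H3K27ac peaks gave 12.2% gained and 12.6% lost at low G+C, and 5.60% gained and 16.4% lost at high G+C, so that this tilt was not particular to the members. Across the 1681 members, Spearman's rho between G+C content and log2 fold change was -0.14. Over the 1022 members with a mean count of at least 50 it was -0.07, as it was over all 51489 peaks (-0.07). The points share their libraries, and the part of base composition in the fold changes was not tested.

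**Figure D5:**
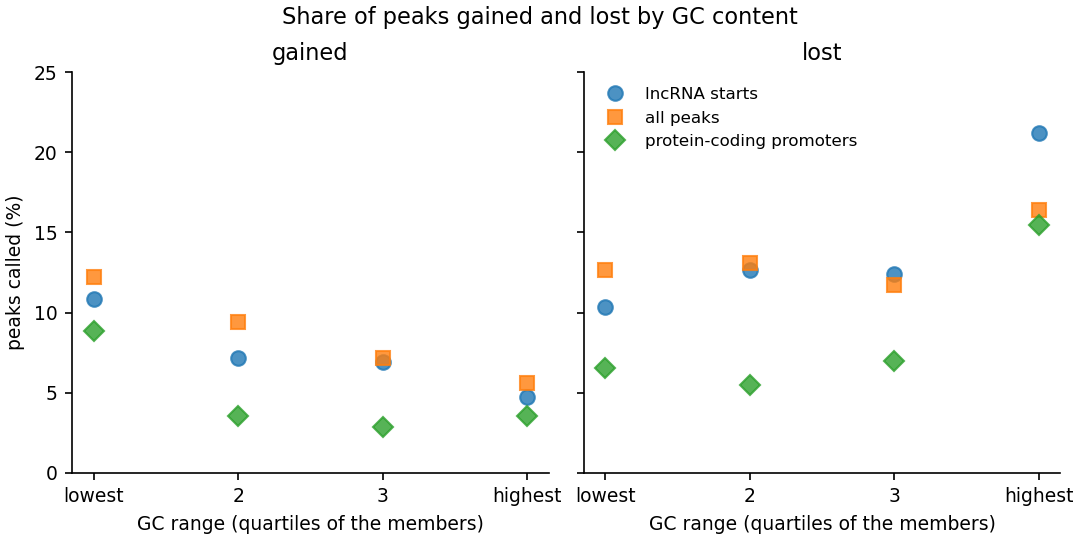
Points give the percentage of peaks gained (left) and lost (right) in 4 ranges of G+C content, set at the quartiles of the members, for the lncRNA start peaks, all H3K27ac peaks and unlisted protein-coding promoter peaks. From the lowest to the highest range, the share of members gained falls from 10.8% to 4.76% and the share lost is highest (21.2%) at the highest G+C.

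Start-site motifs are given for the 920 members whose start lay in the peak. A GC box was found in 40.7% of their 300-base windows, against 22.7% over all annotated lncRNA gene starts and 52.4% over protein-coding gene starts, which differ in G+C content (median 57.3%, 49.0% and 60.3%). It was present in 27.9% of gained and 35.6% of lost windows, and their median G+C was 50.3% and 55.7%. AP-1 matches occurred in 9.84% of 61 gained, 6.67% of 135 lost and 8.43% of 724 uncalled windows, against 9.94% over all lncRNA starts and 6.38% over protein-coding starts. TATA boxes occurred in 13.1% of gained, 8.89% of lost and 8.70% of uncalled windows, against 15.9% and 10.8% over all lncRNA and protein-coding starts. NF-Y matches were found in 31.3% of the member windows (35.4% of all lncRNA and 35.9% of protein-coding starts), cell cycle homology regions in 14.7% (19.8% and 13.3%) and cAMP response elements in 2.39% (0.901% and 2.29%).

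CTCF, a DNA-binding protein that anchors chromatin loops, was measured in separate libraries. A CTCF peak overlapped 554 members (33.0%), against 26.9% of all H3K27ac peaks and 49.4% of unlisted protein-coding promoter peaks. Of 580 such CTCF peaks, 472 had an adjusted p in the deposited table, and by the study's threshold for CTCF (adjusted p under 0.2, more than 1.5-fold) 4 of these were gained and 22 lost (0.847% and 4.66%). The background over all 39485 CTCF peaks with an adjusted p was 2.99% gained and 4.28% lost. The median CTCF log2 fold change was -0.11 inside members, -0.01 over all CTCF peaks and -0.18 inside unlisted protein-coding promoter peaks.

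Inside members that lost H3K27ac, 6 of 77 CTCF peaks with an adjusted p were lost (7.79%), against 4.28% over all CTCF peaks. Inside uncalled members 16 of 382 were lost (4.19%). Only 18 were tested inside gained members, and few CTCF peaks in members were gained at all, so calls in opposite directions had little room to occur. CTCF and H3K27ac were thus lost together at 6 members, and no member had the 2 called in opposite directions. These were KLRK1-AS1 (CTCF -0.60 ± 0.18, adjusted p 0.0364 in the deposited DESeq2 table), ENSG00000259368 (-0.64 ± 0.14), MYCL-AS1 (-1.06 ± 0.45), DGCR5 (-1.11 ± 0.25), ENSG00000227712 (-0.67 ± 0.17) and LINC00887 (-0.93 ± 0.32), of which all but KLRK1-AS1 were named after their values were seen. GBAP1 (CTCF -0.68 ± 0.17), LINC02033 (-1.19 ± 0.46), LINC00880 (-0.75 ± 0.24) and SNHG28 (-0.73 ± 0.26) lost CTCF with an H3K27ac decrease below the fold threshold, and ENSG00000287594 gained CTCF (0.98 ± 0.24) with H3K27ac at 0.39 ± 0.07. At the MIR31HG start CTCF fell (-0.98 ± 0.26, adjusted p 0.0138 in the deposited DESeq2 table) while H3K27ac stayed at 0.10. The median CTCF change was 0.15 in 24 peaks inside gained members, -0.16 in 95 inside lost members and -0.10 in 466 inside uncalled ones. Over all 585 pairs Spearman's rho was 0.15, a weak relation that is no finding.

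Of 2435 regions listed as senescence-specific for the retinoblastoma protein Rb, a repressor of cell cycle genes, 13 overlapped 13 members (0.773%, against 0.691% of all H3K27ac peaks). None of the 13 was called for H3K27ac, whose change ranged from -0.27 to 0.34 on the log2 scale. Over all H3K27ac peaks 22.6% were gained or lost, and 10.5% of members in the highest quartile of mean count. Most of the 13 had high counts, and with so few members the difference was not tested. They included MIR17HG (-0.01 ± 0.07), CHROMR (-0.04 ± 0.09), LINC01143 (-0.27 ± 0.10), ENSG00000275180 (-0.22 ± 0.07), ENSG00000290399 (0.34 ± 0.08) and LINC00847 (0.03 ± 0.07). LINC00869 was among them with 5 near-identical copies elsewhere.

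Peaks on both sides of the limits that define the members had similar values. Of 184 members whose start was over 1500 bp away, 21 were gained and 22 lost (median log2 fold change -0.03), and of 166 peaks just outside, with a start up to 2500 bp away, 16 were gained and 22 lost (median -0.02). Of 17 members at least 8000 bp wide 2 were lost, and of 19 peaks of 10000 bp or more that otherwise met the rule none was called.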

How the data were processed

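H3K27ac and CTCF ChIP-seq had each been measured in 3 senescent and 3 non-senescent libraries of EndoC-βH3 cells, grouped from the labels. The authors' upstream steps, as the methods give them, were adapter trimming (Trim Galore), alignment to hg38 (Bowtie2), removal of duplicates for H3K27ac (none is stated for CTCF), peak calling (HOMER for H3K27ac, MACS2 for CTCF), a filter of CTCF peaks for the CTCF motif (not checked in the deposited table) and a DESeq2 comparison of reads in peaks. Versions and the merging of replicate peaks are not given in the sources used here. The authors' mean signal is the mean of read counts divided by size factors. Each peak's deposited log2 value sets senescent against non-senescent cells and comes with a standard error. A Wald score, also deposited, equals the quotient of these columns. The deposited p-value and adjusted p-value are the authors' own, adjusted over each table, and the adjusted one was missing for 11972 CTCF peaks. The other deposited files hold region positions alone, of which the authors' 2 enhancer lists and the Rb list were used.

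The tables hold the authors' comparison and no value per library, so a planned count test was not possible: the deposited comparison was used as it stands and nothing was refitted. Depth per library is therefore unknown, and the standard error of each fold change stands for its precision. Table starts equal those of the region lists and were read as 0-based. Peaks were compared with GENCODE 44 starts (hg38) in Python 3.11.15 with pandas 2.3.3 and pysam 0.24.0, and the overlap and calling steps were tested on simulated data. Thresholds were those of the study (adjusted p under 0.05 for H3K27ac and 0.2 for CTCF, fold change above 1.5). State means called implied were computed from the deposited mean and fold change, assuming equal numbers of libraries. Near-identical copies were sought with minimap2 2.31-r1302. The members, gene lists and rules were chosen with earlier results of these data known. Named members were the 12 gained and 12 lost with the smallest adjusted p, the 5 with the highest mean count, those on the lncRNA lists, called hosts of small RNAs, and up to 6 each with a called CTCF peak or an Rb region, and others are said to be chosen later. TP53COR1, PDX1-AS1, TUNAR and TUG1 matched no lncRNA gene symbol in the annotation. The value of 1 marker gene of other cells is not reported here. Alternatives covered thresholds, counts, start definitions, centering, G+C content and copies.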

Additional observations from a re-analysis of the deposited data

How the results depend on the processing

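No paired analysis was possible because the deposited tables hold no value per library, and leaving out single replicates was not run for the same reason. The gained and lost counts (125 and 238) became 62 and 121 at a fold change above 2, and 25 and 50 when tested against a fold change of 1.5. With a mean count of at least 50 they were 82 and 152 of 1022 members, and with the start inside the peak 61 and 135 of 920, as fewer peaks entered. The median log2 fold change lay between -0.07 and -0.02 under the 14 alternatives, of which leaving out members with near-identical copies was chosen after seeing the data. Losses made up 63.3% to 68.9% of calls under each of them. Under the other alternatives neither count moved by over 1.5 times. The CTCF calls in members fell from 26 to 10 at an adjusted p under 0.05. Centering on coding promoters (a shift of 0.03) or removing the G+C trend changed the call of none of the 24 strongest members. Peaks with low counts limit what can be seen: in the lowest quartile of mean count the median standard error was 0.46, against 0.09 in the highest.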
